A study of Mus musculus with 4 samples.

Results

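The 9 genes described here, *Shh*, *Ptch1*, *Smo*, *Gli1*, *Gli2*, *Gli3*, *Sufu*, *Hhip* and *Gas1*, form the core of the Hedgehog pathway. They were taken by symbol, and each of the 9 was found among the 21091 entries for which expression was deposited. All 9 had a mean of at least 1 FPKM (sequenced fragments normalised to transcript length and to library size), the minimum met by 12449 entries. *Shh*, *Gli1*, *Gli2* and *Hhip* met it through the E11 libraries alone, so for these genes a fall with stage is in part built into the filter.

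RNA sequencing was carried out on mouse neural progenitors (C57BL/6) from embryonic day 11 (E11) or 14 (E14), with 1 library in each of 4 groups. E11 CTL and E14 CTL are the libraries labelled WT, and E11 *Stat3* cKO and E14 *Stat3* cKO are labelled as conditional knockouts of *Stat3*, with floxed alleles and Cre under a rat *Nestin* promoter. The study describes the knockout in progenitors as reached by E14, so how far *Stat3* was deleted in the E11 library is open to doubt, and each E11 genotype ratio compares the libraries as labelled. The animal methods of the study give its controls as Nestin-Cre embryos with 1 floxed and 1 intact *Stat3* allele, whereas the sequencing methods say wild-type, so whether the CTL cells carried Cre is unclear. The cells came from dissected brains and were kept for 3 days in suspension, as neurospheres, in serum-free medium with EGF and FGF. The number of embryos behind a library is not given. Without a replicate in any group, the variation between cultures is unknown, and differences are given as ratios of FPKM with no test.

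Hedgehog ligands are secreted proteins that bind Patched receptors at the cell surface. Without ligand, Patched holds the membrane protein Smoothened inactive, and the GLI factors are kept in the cytoplasm by SUFU or are cut into repressors. With ligand, Smoothened gathers in the primary cilium and full-length GLI proteins enter the nucleus. *Gli1*, *Ptch1* and *Hhip* are textbook targets of the pathway and are used as its readout. In the embryonic brain, *Shh* is known as a ventral signal and as a mitogen for progenitors, and *Gli3* as a gene of the dorsal telencephalon.

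*Stat3* itself was at 7.41 FPKM (CTL) and 6.74 FPKM (cKO) at E11 and at 27.6 and 9.55 FPKM at E14, so it separated the genotypes at E14 but hardly at E11. An FPKM value is taken over the whole transcript and includes exons that Cre leaves in place. The Y-linked gene *Ddx3y* was at 25.1 FPKM in E14 *Stat3* cKO and 0.0569 in E14 CTL, and it was listed at 0 in both E11 libraries, so the sex of the embryos cannot be told apart from genotype at E14, nor from stage in *Stat3* cKO. All 10 markers of neural progenitors were above 1 FPKM in every library, with summed levels of 1554 to 1723 FPKM at E11 and of 7503 to 8163 at E14, where *Fabp7* alone gave 5245 (CTL) and 5929 (cKO). In CTL, 4 of these 10 were lower at E14 than at E11. The 12 markers of mesenchyme and pericytes summed to 1475 and 1339 FPKM in the E11 libraries (CTL and *Stat3* cKO) and to 57.3 and 77.6 at E14, of which *Pdgfra*, also known from oligodendrocyte precursors, gave 35.9 and 61.2. These cells also use Hedgehog signals, and in bulk RNA fewer cells of a type and less RNA per cell cannot be told apart. From the lowest values, 1 fragment on a transcript of 1 kb was worth at most 0.0260 FPKM (in E11 *Stat3* cKO, the shallowest library), which allows the approximate number of fragments behind a low value to be given.

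The promoters of the readout genes are shown because *Ptch1* and *Hhip* fell with stage and are the members whose transcription is the usual measure of the pathway. The stretches below lie before an annotated start (RefSeq, GRCm38.p6, minus strand), with each CG dinucleotide in capitals. The *Ptch1* stretch is chr13:63565736-63565985 (250 bases), and the *Hhip* stretch is chr8:80058061-80058258 (198 bases).
Ptch1: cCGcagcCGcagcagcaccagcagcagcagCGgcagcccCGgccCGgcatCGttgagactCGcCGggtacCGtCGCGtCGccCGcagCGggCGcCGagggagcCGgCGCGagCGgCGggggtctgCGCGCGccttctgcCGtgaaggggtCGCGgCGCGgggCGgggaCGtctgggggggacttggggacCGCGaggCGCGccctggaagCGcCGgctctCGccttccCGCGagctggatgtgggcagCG
Hhip: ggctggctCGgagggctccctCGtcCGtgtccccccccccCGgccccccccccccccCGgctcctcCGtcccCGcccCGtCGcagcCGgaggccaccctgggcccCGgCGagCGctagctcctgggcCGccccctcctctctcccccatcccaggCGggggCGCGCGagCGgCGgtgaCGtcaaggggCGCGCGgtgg

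Promoters were taken for 7 of the 9 genes, all but *Shh* and *Gli1*. Over the 250 bases before the start, *Ptch1* held 41 CG dinucleotides, more than 98.9% of the 32851 tabulated promoters, *Gli3* held 34, *Hhip* 28 and *Gli2* 22. *Smo* held 15, *Gas1* 10 and *Sufu* 8, and the median over all promoters was 6. Of the 28 for *Hhip*, 24 lie in the 198 bases printed above, which stop where a longer annotated transcript of the gene begins. The GLI motif GACCACCCA was searched in the 300-base windows on both strands and was in none of the 7, against 0.253% of all promoters. The STAT motif TTCNNNGAA, searched likewise, was also in none, against 8.3% of all promoters. Neither result says anything about binding outside these windows.

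The first question was how the pathway differed between E11 and E14. From E11 to E14, 6 of the 9 genes fell by at least 2-fold in CTL and 7 did so in *Stat3* cKO, while none rose by 2-fold in either. Over all genes with a ratio, 12.5% were at least 2-fold lower and 14.6% higher in CTL, and 11.7% and 10.1% in *Stat3* cKO. The median log2 ratio of the 9 genes was -2.12 in CTL and -1.69 in *Stat3* cKO, against medians over all genes of 0.21 and 0.058. Upper-quartile scaling moved the median over all genes in CTL to -0.16. At 1.5-fold, 7 members were lower in each genotype, against 18.9% of all genes in CTL and 20.1% in *Stat3* cKO. The falls were largest for *Gli1*, *Shh* and *Hhip* in both genotypes, while *Smo* was nearly level. Of the 12 mesenchyme and pericyte markers, the 10 that passed the minimum were also lower at E14 in both genotypes, 9 of them by at least 2-fold. For 4 of the 10, which were under 1 FPKM in both E14 libraries, a fall is in part built into the filter. The part of these cells in the falls of the Hedgehog genes was not tested.

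**Figure D1:**
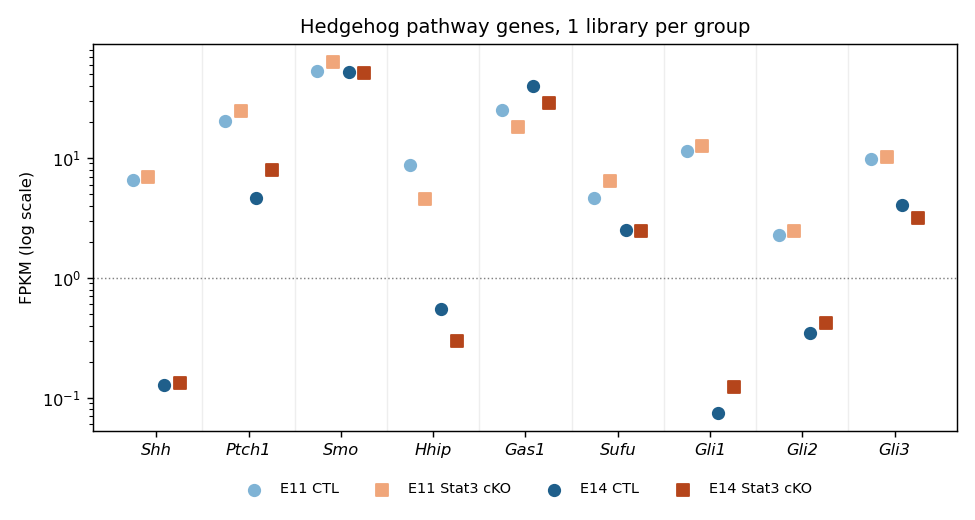
Level of the 9 Hedgehog pathway genes in FPKM (log axis) in the 4 libraries, 1 point per library, circles for CTL and squares for *Stat3* cKO, with the dotted line at 1 FPKM. *Shh*, *Hhip*, *Gli1* and *Gli2* lie above 1 FPKM in both E11 libraries and below it in both E14 libraries, whereas *Smo* stays between 50.9 and 63.6.

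*Shh* (listed on chromosome 5 from 28783380 to 29045749, a span shared with the entry *9530036O11Rik*) encodes the ligand Sonic hedgehog. At E11 its level was 6.54 FPKM (CTL) and 6.89 FPKM (cKO), and at E14 it was 0.128 and 0.132 FPKM. Both E11 values were far above both E14 values, by 51.1-fold in CTL and 52.3-fold in *Stat3* cKO, or by log2 ratios of -2.74 and -2.80 with a pseudocount of 1 FPKM. The E14 values rest on about 15 and 17 fragments, with Poisson 95% intervals of 0.0717 to 0.211 FPKM and 0.0768 to 0.211 FPKM that cover counting error only.

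*Gli1* (chromosome 10, 126760783 to 126778635) encodes the GLI factor that acts as an activator only and is itself a target. At E11 its level was 11.3 FPKM (CTL) and 12.6 FPKM (cKO), against 0.0747 and 0.124 FPKM at E14. It was 152-fold lower at E14 in CTL and 101-fold lower in *Stat3* cKO, the largest fall among the 9 genes in both genotypes. These folds depend on the low E14 values: with a pseudocount of 1 FPKM the log2 ratios of -7.25 and -6.66 became -3.52 and -3.59, still the lowest of the 9. Among all genes with a ratio, this was the 25th lowest of 12430 in CTL and the 49th lowest of 12426 in *Stat3* cKO. About 12 fragments lay behind the E14 CTL value and 23 behind the E14 *Stat3* cKO value.

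*Hhip* (chromosome 8, 82489750 to 82581907), a target gene whose product binds and sequesters the ligand, had 8.79 FPKM (CTL) and 4.57 FPKM (cKO) at E11, and 0.549 and 0.299 FPKM at E14. Its fall with stage was 16.0-fold in CTL and 15.3-fold in *Stat3* cKO, and a pseudocount of 1 FPKM gave log2 ratios of -2.66 and -2.10. *Ptch1* (chromosome 13, 63612841 to 63666828), the receptor that holds Smoothened inactive, had 20.2 and 24.7 FPKM at E11 and 4.63 and 7.96 at E14, in CTL and *Stat3* cKO in turn. It fell by 4.35-fold in CTL and 3.10-fold in *Stat3* cKO and was thus the one of the readout genes that stayed above 1 FPKM at E14.

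*Gli2* (chromosome 1, 120730638 to 120950196), which encodes the main activator in most tissues, was the lowest of the 9 genes in both E11 libraries, with 2.29 FPKM (CTL) and 2.47 FPKM (cKO). At E14 it was at 0.347 and 0.421 FPKM, 6.61-fold and 5.88-fold lower. *Gli3* (chromosome 13, 15555556 to 15821858), whose product acts mostly as a repressor, fell less, from 9.86 to 4.05 FPKM in CTL and from 10.2 to 3.18 in *Stat3* cKO, by 2.44-fold and 3.22-fold. The makeup of the GLI transcripts therefore shifted. Summed over the 3 genes, GLI levels were 23.5 and 25.3 FPKM at E11 and 4.47 and 3.73 at E14, in CTL and *Stat3* cKO. *Gli1* made up 48.2% and 49.7% of this sum at E11, and 1.67% and 3.32% at E14. *Gli3* made up 42.0% and 40.5% at E11, and 90.6% and 85.4% at E14.

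*Sufu* (chromosome 19, 46471408 to 46561150), the cytoplasmic inhibitor of GLI proteins, had 4.63 FPKM (CTL) and 6.46 FPKM (cKO) at E11, and 2.49 and 2.48 FPKM at E14. It was 1.86-fold lower at E14 in CTL, short of 2-fold, and 2.61-fold lower in *Stat3* cKO, while its levels in the E14 libraries were nearly equal. The difference between the stage ratios thus came from the E11 values. After centring on the median of all genes, the log2 ratio of *Sufu* in CTL was -1.11, past 2-fold.

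*Smo* (chromosome 6, 29685497 to 29711366), which encodes Smoothened, was the highest of the 9 genes in every library, at 53.5 FPKM (CTL) and 63.6 FPKM (cKO) at E11, and 51.9 and 50.9 FPKM at E14. Its stage ratio on the log2 scale was -0.045 for CTL and -0.32 for *Stat3* cKO. After upper-quartile scaling these were -0.42 and -0.47, both within 2-fold. The level of *Smo* over that of *Ptch1* in the same library was 2.66 and 2.58 at E11, and 11.2 and 6.39 at E14 (CTL and *Stat3* cKO). *Gas1* (chromosome 13, 60275766 to 60278896), a co-receptor anchored in the membrane, was the one member higher at E14, from 25.3 to 39.5 FPKM in CTL and from 18.3 to 28.9 in *Stat3* cKO. These rises of 1.56-fold and 1.58-fold were short of 2-fold. At least 1.5-fold rises were seen in 30.3% of all genes in CTL and 21.6% in *Stat3* cKO.

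**Figure D2:**
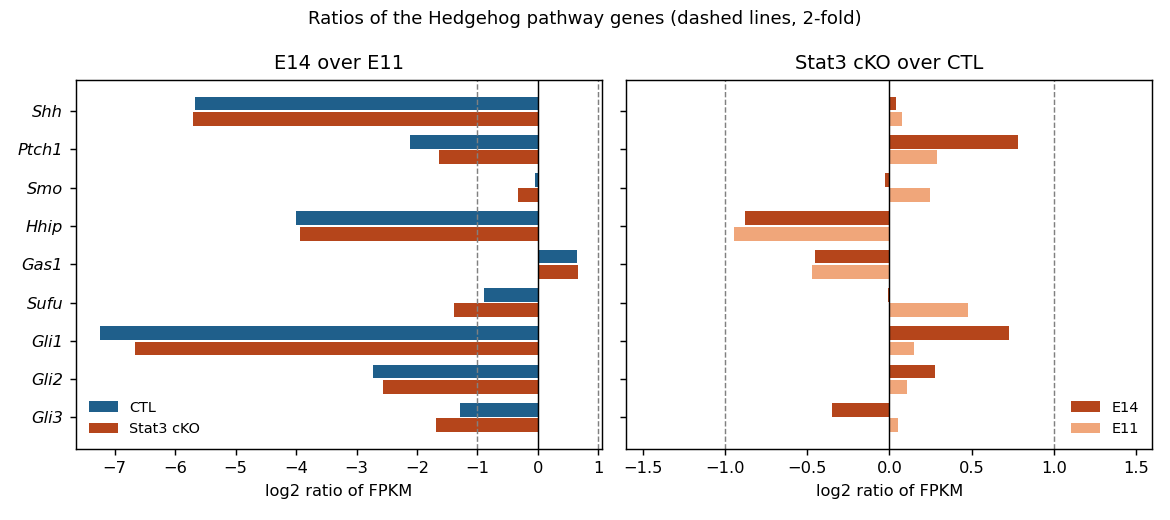
Log2 ratios of FPKM for the 9 genes, E14 over E11 at left (bars for CTL and *Stat3* cKO) and *Stat3* cKO over CTL at right (bars for E14 and E11), with dashed lines at 2-fold and different scales on the horizontal axes. Stage ratios reach -7.25 for *Gli1* in CTL, whereas genotype ratios stay between -0.94 and 0.78.

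The second question was whether the genotypes differed. None of the 9 genes was 2-fold apart between *Stat3* cKO and CTL at either stage. The background was low as well: at E14, 1.85% of all genes were at least 2-fold higher and 1.69% lower in *Stat3* cKO, and at E11 0.209% and 1.12%. The median log2 ratio of the 9 genes was -0.011 at E14 and 0.11 at E11, against -0.079 and 0.059 over all genes. The comparisons share libraries, since each library enters 1 genotype ratio and 1 stage ratio.

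At E14, 2 of the 9 genes lay 1.5-fold or more above CTL in *Stat3* cKO and 1 lay that far below, against 5.82% and 7.67% of all genes. *Ptch1* was 1.72-fold higher, with 4.63 FPKM (CTL) against 7.96 FPKM (cKO), the 412th highest ratio of 12430. These values rest on about 1474 and 2800 fragments, so counting error is small beside the difference, but the spread between cultures is unknown. *Gli1* was 1.66-fold higher in *Stat3* cKO, with Poisson 95% intervals of 0.0386 to 0.130 FPKM in CTL and 0.0784 to 0.186 in *Stat3* cKO that overlap. *Hhip* was 1.83-fold lower in *Stat3* cKO, with intervals of 0.476 to 0.630 FPKM in CTL and 0.249 to 0.357 in *Stat3* cKO that do not overlap. With a pseudocount of 1 FPKM the log2 ratio was 0.064 for *Gli1* and -0.25 for *Hhip*, both within 1.5-fold. The readout genes thus did not move in one direction at E14.

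The other members were closer to 1 at E14. *Gas1* and *Gli3* were lower in *Stat3* cKO, with cKO to CTL ratios of 0.731 and 0.786. *Gli2* had a ratio of 1.21, between values that were both below 1 FPKM. *Shh*, *Smo* and *Sufu* had ratios of 1.03, 0.981 and 0.993. After the same centring, *Smo* and *Sufu* had log2 ratios of 0.052 and 0.068, so their direction depends on the scaling.

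At E11, *Hhip* was the gene with the largest difference, with 8.79 FPKM (CTL) against 4.57 FPKM (cKO), 1.92-fold lower. It was the only 1 of the 9 genes past 1.5-fold in the lower direction, against 3.66% of all genes, and no member was past it in the higher direction (2.18% of all genes). *Hhip* passed 2-fold at E11 after median centring (log2 ratio -1.001) and with upper-quartile scaling (-1.01). *Gas1* had a ratio of 0.722 at E11, close to its ratio at E14. *Sufu* had a ratio of 1.39, *Ptch1* of 1.22 and *Smo* of 1.19, while *Gli1*, *Gli2*, *Shh* and *Gli3* lay between 1.04 and 1.11. *Hhip* and *Gas1* were thus lower in *Stat3* cKO at both stages, whereas *Ptch1*, *Gli1*, *Gli2* and *Shh* were higher at both, *Shh* by at most 1.05-fold. The Poisson 95% intervals of CTL and *Stat3* cKO overlap for *Shh* and *Gli2* at both stages and for *Gli1* at E14. Those directions are therefore not settled even by counting error.

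The order of the levels within a library, which FPKM allows because it is per length, was compared next. In both E11 libraries *Smo* was highest, *Gas1* and *Ptch1* came next in either order, then *Gli1* and *Gli3*, and *Gli2* was lowest. In both E14 libraries the order began with *Smo*, *Gas1*, *Ptch1*, *Gli3* and *Sufu* and ended with *Shh* and *Gli1*. *Gli1* thus moved from the fourth place of the 9 genes to the last. At E14 the intervals of *Gli1* and *Shh* overlap within each library, so their order there is not settled even by counting error.

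The wider pathway was then read from a list of 88 further genes, of which 86 were found and 82 had a mean of at least 1 FPKM. Of these 82, 3 rose and 9 fell by 2-fold or more with stage in CTL, and 2 and 9 did so in *Stat3* cKO, with log2 medians of -0.29 and -0.23. The number that fell is near the share among all genes (12.5% for CTL, 11.7% for *Stat3* cKO), and the number that rose is below it (14.6% and 10.1%). Between genotypes, 1 gene was 2-fold lower at E14, none was 2-fold higher, and none was 2-fold apart at E11. The shares of all genes were 1.69% lower and 1.85% higher at E14, and 1.12% and 0.209% at E11, so the E14 count is near that of genes in general.

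The ligand genes changed places with stage. *Dhh*, which encodes Desert hedgehog, a ligand known from Schwann cells and testis, had 0.166 FPKM (CTL) and 0.0863 FPKM (cKO) at E11, and 16.0 and 3.02 FPKM at E14. The E14 levels were 5.31-fold apart, and *Dhh* was the single gene of the wider pathway past 2-fold between genotypes. At E14 it made up 98.9% of the summed level of *Shh*, *Ihh* and *Dhh* in CTL and 92.2% in *Stat3* cKO, whereas at E11 *Shh* made up 94.6% and 97.6%. The summed ligand level was 6.92 and 7.06 FPKM at E11, and 16.2 and 3.28 at E14. Of the genes for release of the ligand, *Scube1* was at 6.52 and 7.81 FPKM at E11 and 2.01 and 1.85 at E14, and *Scube3* was likewise lower, at 7.44 FPKM in E11 CTL and 1.46 in E14 CTL. Among the 5 ligand and ligand-handling genes that passed the minimum, 3 fell at least 2-fold and 1 rose at least 2-fold with stage, in both genotypes (12.5% and 14.6% of all genes in CTL, 11.7% and 10.1% in *Stat3* cKO). The gene that rose, *Dhh*, met the minimum through E14 alone and 1 that fell met it through E11 alone, so these directions are in part built into the filter.

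**Figure D3:**
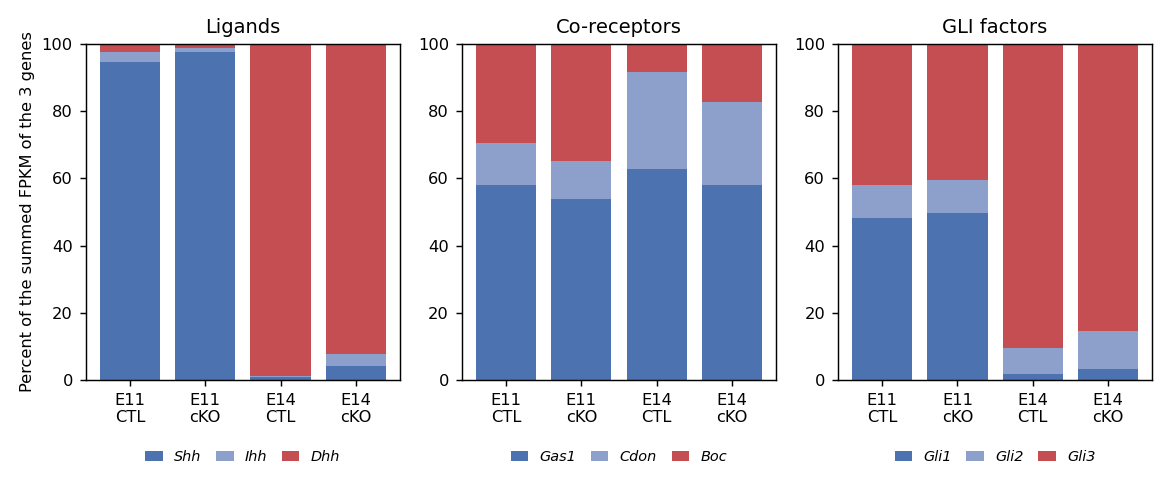
Share (percent) of each gene in the summed FPKM of the 3 ligand genes, the 3 co-receptor genes and the 3 GLI genes in each library, 1 library per bar. *Dhh* takes the place of *Shh* at E14, *Boc* loses share to *Cdon*, and *Gli3* makes up 90.6% of the GLI sum in E14 CTL against 42.0% in E11 CTL.

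Among the co-receptors that present the ligand to Patched beside *Gas1*, *Cdon* was higher at E14, at 5.32 and 3.88 FPKM at E11 and 18.1 and 12.4 at E14 in CTL and *Stat3* cKO. *Boc* was lower at E14, at 12.9 and 11.8 FPKM and then 5.20 and 8.56. *Cdon* thus passed 2-fold with stage in both genotypes, and *Boc* in CTL alone, and whether that differs between genotypes was not tested. *Gas1* made up 53.8% to 62.9% of the summed level of the 3 co-receptors in the 4 libraries, while *Cdon* went from 12.2% to 28.8% in CTL and *Boc* from 29.6% to 8.29%. *Gpc3*, a glypican known to bind Hedgehog ligand and to be abundant in mesenchyme, was at 178 and 186 FPKM at E11 and at 1.71 and 1.34 at E14.

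Among the intracellular genes, few passed 2-fold. Of 35 transducers and regulators of GLI, none rose 2-fold and 2 fell 2-fold with stage in each genotype, against 14.6% and 12.5% of all genes in CTL and 10.1% and 11.7% in *Stat3* cKO. Both were ZIC factors, which bind GLI proteins and were named after their values were seen: *Zic1* went from 68.4 to 7.05 FPKM and *Zic2* from 63.4 to 6.44 in CTL. The 3 with the highest levels were the casein kinase genes *Csnk1a1*, at 182 to 213 FPKM over the 4 libraries, and *Csnk1e*, at 65.3 to 80.9, and the protein kinase A subunit gene *Prkar1a*, at 64.0 to 89.4. Of 36 genes of the primary cilium, 1 rose and none fell 2-fold in CTL, and none rose and 1 fell in *Stat3* cKO, with medians of -0.34 and -0.19, against the same shares of all genes. *Arl3* was the highest of them, at 60.1 to 84.1 FPKM, followed by *Ift20*, at 39.8 to 62.2, and *Kifap3*, at 31.9 to 45.4. None of the transducer and cilium genes was 1.5-fold apart between genotypes at either stage. Among all genes, 5.82% were that much higher and 7.67% lower at E14, and 2.18% and 3.66% at E11.

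**Figure D4:**
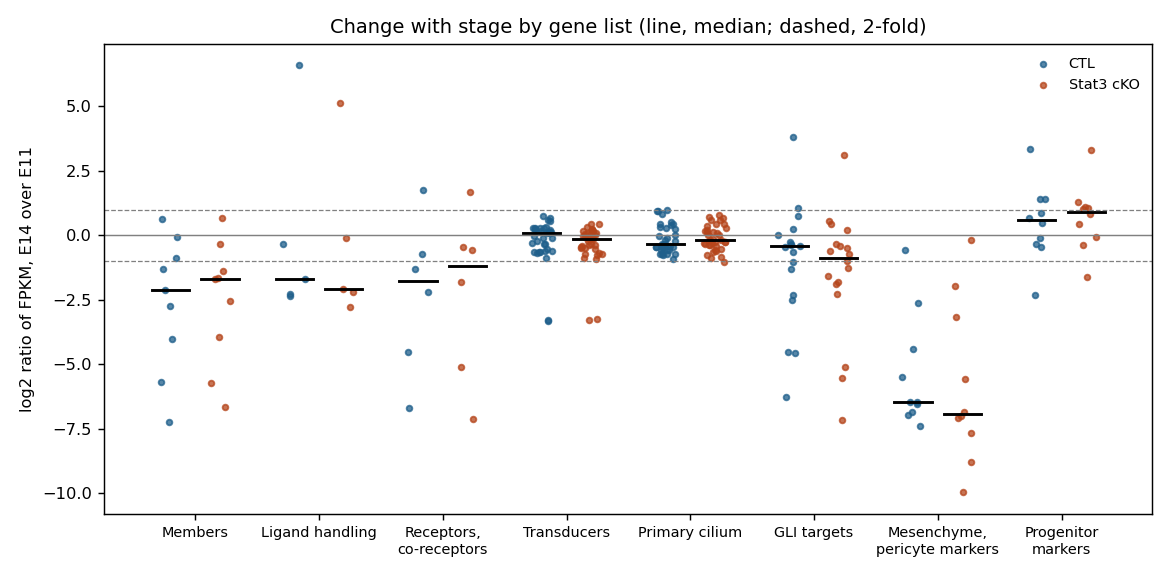
Log2 ratio of E14 to E11 for each gene with a mean of at least 1 FPKM, by gene list, in CTL and *Stat3* cKO, 1 point per gene, with the median as a black line and dashed lines at 2-fold. Transducer and cilium genes gather near 0, the 9 members reach down to -7.25, and the mesenchyme and pericyte markers have medians of -6.46 and -6.92.

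Genes described as GLI targets in progenitors were mixed. Of 22 listed, 21 were found and 18 passed the minimum. By stage, 2 were 2-fold higher and 7 lower at E14 in CTL, and in *Stat3* cKO 1 and 8, giving log2 medians of -0.42 and -0.87. The shares among all genes were 14.6% higher and 12.5% lower in CTL, and 10.1% and 11.7% in *Stat3* cKO. At E14, *Ccnd1*, which encodes cyclin D1 and answers to many pathways besides Hedgehog, had 210 FPKM (CTL) and 34.2 FPKM (cKO), 6.14-fold lower, while at E11 it had 101 and 120. *Nkx2-1*, a ventral forebrain gene induced by Hedgehog signals, was 2.29-fold higher in *Stat3* cKO at E14, at 1.16 and 2.65 FPKM. These were the only 2 of the 18 past 2-fold between genotypes at E14 (1.85% of all genes were higher and 1.69% lower), and none was at E11. At 1.5-fold, 1 of the 18 was higher and 6 were lower in *Stat3* cKO at E14, against 5.82% and 7.67% of all genes. The median log2 ratio of the 18 at E14 was -0.15, against -0.079 over all genes. *Ccnd2* was at 65.2 and 33.5 FPKM at E14, just within 2-fold. *Mycn*, a proliferation gene downstream of Hedgehog in granule cell precursors, differed little between genotypes, at 24.3 and 23.8 FPKM at E11 and 18.3 and 17.9 at E14. *Olig2* rose with stage, from 11.9 to 168 FPKM in CTL and from 15.5 to 134 in *Stat3* cKO, opposite to the direction of *Gli1*.

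Regional genes of the forebrain were read beside the pathway. Of 14 ventral genes that passed the minimum, 9 fell and 3 rose at least 2-fold with stage in CTL, and 7 and 3 in *Stat3* cKO. Of 12 dorsal genes, 6 fell and 1 rose in CTL, and 8 and 1 in *Stat3* cKO. Among all genes 12.5% fell and 14.6% rose in CTL, and 11.7% and 10.1% in *Stat3* cKO. The minimum was met through E11 alone by 4 of the ventral and 3 of the dorsal genes, for which a fall is in part built in. Between genotypes at E14, 3 ventral genes rose past 2-fold in *Stat3* cKO and none fell that far, against 1.85% and 1.69% of all genes. These were *Nkx2-1*, *Dlx2*, at 0.613 and 1.55 FPKM, and *Gsx2*, at 2.56 and 6.05. Of the dorsal genes *Bmp4* was at least 2-fold higher, at 0.448 and 1.33 FPKM, and none was 2-fold lower. The medians at E14 were 0.30 for the ventral and 0.13 for the dorsal genes. At E11 the medians were 0.22 and 0.12, while 2 of the 14 ventral genes fell past 2-fold in *Stat3* cKO and none rose that far (1.12% and 0.209% of all genes). These were *Lhx8*, at 8.11 and 1.58 FPKM, and *Lhx6*, at 1.67 and 0.572, both named after their values were seen. No dorsal gene was 2-fold apart at E11.

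The genes most like *Gli1* and *Ptch1* were found by the Euclidean distance between log2 profiles over the 4 libraries, each centred on its mean, among 12419 genes. Nearest to *Gli1* were *Tmem200b*, *Enpep*, *Tfap2b*, *Gcnt1* and *Tal2*, at distances of 0.24 to 0.45, which went from between 7.23 and 25.1 FPKM in E11 CTL to between 0.0561 and 0.160 in E14 CTL. Nearest to *Ptch1* were *Nynrin*, *Rassf4*, *Isl1*, *Angptl2* and *A930013F10Rik*, at 0.078 to 0.20. *Nynrin* had 17.5 FPKM (CTL) and 21.8 FPKM (cKO) at E11, and 4.31 and 7.24 FPKM at E14. Among the members themselves *Shh* and *Gli1* were each nearest to the other (distance 1.36), as were *Ptch1* and *Gli2* (0.85) and *Gli3* and *Sufu* (0.52). With 4 points a profile, the distance is mostly the size of the stage ratio.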

How the data were processed

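Per the study's methods, the authors sequenced each library on an Illumina instrument, checked reads with FastQC and ran the Tuxedo pipeline (TopHat and Cufflinks), and they deposited 1 FPKM value per entry and library. The submitters' processing notes name Bowtie 0.12.2 and the builds mm8 and mm9, without roles. Spans equalled those of RefSeq GRCm38.p6 for 34.2% of symbols with starts counted from 0 and 2.30% from 1, so 1 was added to listed starts, and coordinates are given in the files' own build. GRCm38.p6 was used for promoters only.

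The deposited FPKM were not rescaled. Plain ratios without a pseudocount were taken for all entries. Counts, shares, ranks and medians used only the genes whose average over the 4 libraries reached 1 FPKM. A gene at 0 in either library had no ratio, and 2-fold was the threshold. With 1 library a group there was no test. The value of 1 fragment was the lowest peak of FPKM times transcript length (genes with 1 transcript in GENCODE M21), and fragments per member used the longest coding transcript, so they are approximate. The steps were tested on simulated data. Alternatives were pseudocounts of 0.1 and 1, median centring, upper-quartile scaling, a minimum of 5 FPKM or none, and thresholds of 1.5 and 3. A minimum of 1 FPKM in 1 of the libraries compared was added after the data had been seen. The 9 members and all lists were chosen with earlier results of these data known. Named were the 9 members, *Stat3*, *Ccnd1*, *Mycn*, the 3 highest genes of each pathway role, pathway and GLI target genes past 2-fold between genotypes, regional genes past it at E14, and the 5 nearest to *Gli1* and to *Ptch1*. *Ddx3y*, *Pdgfra*, *Fabp7*, *Ihh*, *9530036O11Rik*, *Aif1*, *Zic1*, *Zic2*, *Lhx6* and *Lhx8* are named outside this rule, and 1 gene within it is not reported here. Python 3.11.15, numpy 2.4.6, pandas 2.3.3, scipy 1.17.1 and matplotlib 3.10.9 were used.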

Additional observations from a re-analysis of the deposited data

Results flagged for a closer look

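For 17 of the genes named above, the log2 ratio of *Stat3* cKO to CTL lay on opposite sides of 0 at E11 and E14. With 1 library in each group, the difference was not tested. The ratio at E14 minus that at E11 was -0.49 for *Sufu*, -0.40 for *Gli3* and -0.28 for *Smo* among the 9 members. It was -2.87 for *Ccnd1*, -1.21 for *Ccnd2*, -0.71 for *Olig2* and -0.60 for *Prkar1a*. For *Scube3* it was -0.42, for *Gpc3* -0.42, for *Scube1* -0.38 and for *Csnk1e* -0.069. *Boc* went the other way, by 0.85, from 11.8 against 12.9 FPKM at E11 to 8.56 against 5.20 at E14. So did *Lhx8*, by 2.91, *Ihh*, by 2.46, *Lhx6*, by 2.08, and *Tmem200b*, by 0.52. For *9530036O11Rik* it was -1.62. *Ihh* and *9530036O11Rik* were below 1 FPKM in all 4 libraries, and *Tmem200b* was below it in both E14 libraries. The median over all genes itself went from 0.059 at E11 to -0.079 at E14. After centring on it, *Smo* and *Sufu* were above 0 at both stages and *Gli3* was below 0 at both, at -0.0043 at E11.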

How the results depend on the processing

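No member ratio past 2-fold changed direction under any alternative. The 6 falls in CTL and 7 in *Stat3* cKO from E11 to E14 became 3 and 3 with a minimum mean of 5 FPKM, which leaves 5 of the 9 members, and 5 and 6 at 3-fold. With a pseudocount of 1 FPKM the members' median log2 stage ratio went from -2.12 to -1.29 in CTL and from -1.69 to -1.43 in *Stat3* cKO, and with 0.1 FPKM that of *Gli1* in CTL was -6.03. In CTL the falls became 7 with either scaling and at 1.5-fold. The median log2 ratio of the members between genotypes at E14, -0.011, became 0.068 after centring on the median of all genes and 0.14 with upper-quartile scaling. At a threshold of 1.5-fold, 2 members were higher and 1 lower in *Stat3* cKO at E14, 1 was lower at E11, and 1 was higher at E14 than at E11 in each genotype. At E11, 1 member (*Hhip*) was past 2-fold lower with either scaling. When at least 1 FPKM was asked of 1 of the 2 libraries compared, *Shh*, *Gli1*, *Gli2* and *Hhip* dropped out of the genotype comparison at E14, and the counts past 2-fold stayed at 0. No paired analysis was possible because each group had 1 library. For the same reason no library could be left out. Below 1 FPKM, ratios at E14 rest on as few as 12 fragments.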

Other observations

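Markers of other cell types that dissected brain can hold were read as well. The 7 endothelial markers summed to 4.97 and 5.15 FPKM at E11 and 1.43 and 2.15 at E14, in CTL and *Stat3* cKO. The 7 microglia and leukocyte markers summed to 5.19 and 3.51 FPKM at E11 and 1.17 and 1.31 at E14, with *Aif1* listed at 0 in E14 CTL. The 5 erythroid markers found summed to 27.2 FPKM in E11 CTL and to 3.94 in E11 *Stat3* cKO, and to 2.11 and 1.17 at E14. The E11 libraries thus differ in erythroid RNA in the same direction as in *Hhip* and *Gas1*, and its part in those ratios was not tested. The entry *9530036O11Rik*, which shares the listed span of *Shh*, had 0.112 and 0.12 FPKM at E11 and 0.0625 and 0.0217 at E14.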
